A study of Mus musculus with 12 samples.

Results

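The genes described here encode the first steps of interferon gamma (IFNγ) signalling and of the cytokine pathways that share its kinases: the receptor chains Ifngr1 and Ifngr2, the Janus kinases Jak1, Jak2 and Tyk2, and the transcription factors Stat2, Stat3 and Stat6. They were chosen by name, with earlier results of these data known. All 8 were found among the 46729 entries of the deposited expression table, each in an entry of its own that holds no second gene. The cells were macrophages grown from the bone marrow of C57BL6 mice over 10 days, at first with interleukin-3 and throughout with conditioned medium of L-929 cells, which supplies CSF-1, and their RNA was sequenced. The 4 groups were macrophages with no IFNγ and macrophages given IFNγ at 0.2, 2 or 20 U/ml for 8 h, and the label of the highest dose, which names no volume, was read like the others. The labels list 3 libraries per group and name no genetic change in any group, and whether those are 3 animals or 3 cultures is not stated. The table holds 1 value per gene and group, so no difference below has a replicate check, an SD or a p-value.

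IFNγ binds a receptor made of IFNGR1, the chain that holds the ligand, and IFNGR2, the chain needed for signalling. JAK1 is bound to IFNGR1 and JAK2 to IFNGR2, and the kinases phosphorylate the receptor so that STAT proteins dock, become phosphorylated in turn and move to the nucleus. TYK2 works with JAK1 at the receptor of type I interferons, where STAT2 joins IRF9 in a complex that binds the interferon-stimulated response element. STAT3 is used mainly by receptors of the interleukin-6 and interleukin-10 families, and STAT6 by those of interleukin-4 and interleukin-13.

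The RNAs of the 8 genes did not move together. Stat2 and Stat3 were above untreated at all 3 doses, Jak2 and Tyk2 were above untreated at 2 and 20 U/ml, and the receptor chains, Jak1 and Stat6 stayed within a log2 ratio of 0.37 in size of their untreated value at every dose. A level is given as FPKM, which counts sequenced fragments per length of transcript and per size of library, and a ratio as the difference of log2(FPKM + 1). A gene was called higher or lower when this ratio was at least 1 in size, a 2-fold difference on that scale. At 20 U/ml 3 of the 8 genes were called higher and 0 lower, where 6.51% of the 11580 entries used were called higher and 2.94% lower. At 2 U/ml 2 of 8 were called higher against 2.5% of entries, and at 0.2 U/ml 0 of 8 against 5.23%. The members' median log2 ratio was 0.47, 0.26 and -0.17 for these doses in the same order, beside 0.01, 0.01 and 0.00 over all entries used.

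**Figure D1:**
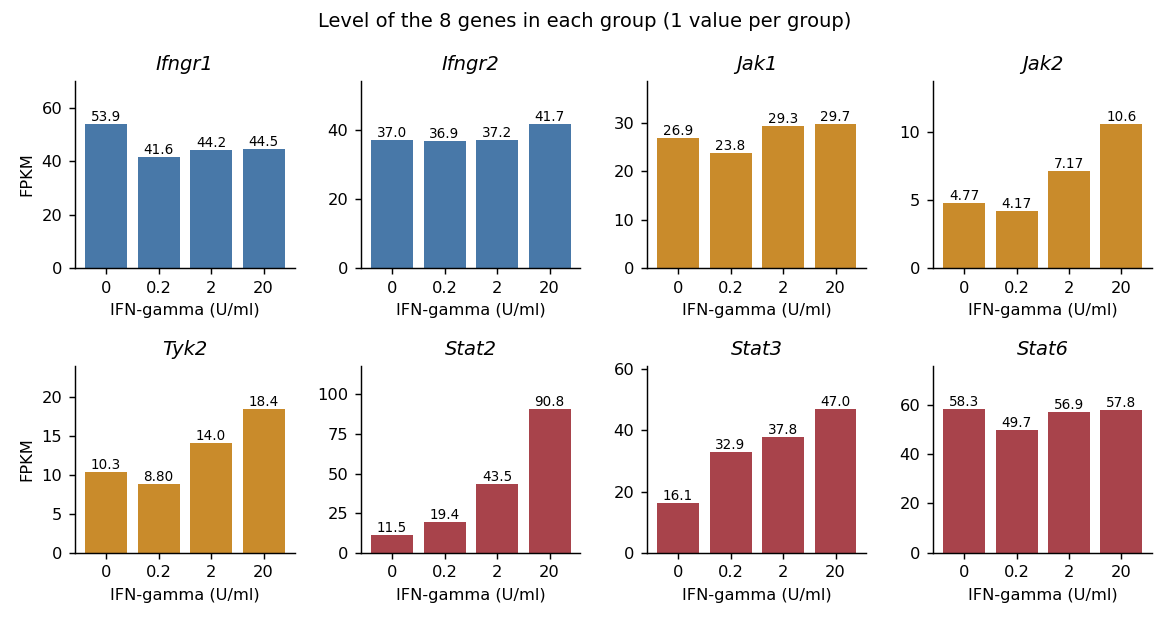
Level of each gene in FPKM (vertical axis, starting at 0, own scale per panel) in the 4 groups (horizontal axis, U/ml IFNγ), with 1 value per group and therefore no error bar. Stat2 goes from 11.5 to 90.8 FPKM, whereas Ifngr2 lies between 36.9 and 41.7 FPKM in every group.

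Because Stat2, Stat3 and Jak2 are the members called higher at 20 U/ml, the 250 bases before their start sites are shown, from RefSeq's table of promoters on GRCm38.p6. All 8 members matched that table. Each window was searched on both strands for the letters of 4 elements: the gamma-activated site TTCNNNGAA, to which STAT dimers bind, the core of the interferon-stimulated response element GAAANNGAAA, the shorter IRF core AANNGAAA, which every match of the former contains, and TTCNNNNGAA, the spacing that STAT6 prefers. Capitals mark matches.
Stat2 (chr10:128270248-128270497, plus strand): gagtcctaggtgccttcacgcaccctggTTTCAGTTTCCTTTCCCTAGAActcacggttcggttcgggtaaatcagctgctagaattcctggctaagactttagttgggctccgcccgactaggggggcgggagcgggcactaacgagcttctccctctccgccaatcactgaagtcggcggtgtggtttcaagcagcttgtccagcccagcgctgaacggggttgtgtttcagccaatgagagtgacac
Stat3 (chr11:100939541-100939790, minus strand): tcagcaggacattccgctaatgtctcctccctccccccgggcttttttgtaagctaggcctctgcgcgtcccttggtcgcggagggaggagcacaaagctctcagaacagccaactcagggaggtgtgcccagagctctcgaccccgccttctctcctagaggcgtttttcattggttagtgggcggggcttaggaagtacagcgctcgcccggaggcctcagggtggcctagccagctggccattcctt
Jak2 (chr19:29251553-29251802, plus strand): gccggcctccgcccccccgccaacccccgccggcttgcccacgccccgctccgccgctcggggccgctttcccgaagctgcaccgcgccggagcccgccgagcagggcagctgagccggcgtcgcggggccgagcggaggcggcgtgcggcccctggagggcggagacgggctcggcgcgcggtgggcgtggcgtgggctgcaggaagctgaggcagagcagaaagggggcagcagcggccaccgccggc
In the Stat2 window the capitals cover 22 bases in which matches overlap. The response element core GAAACTGAAA lies on the other strand between 222 and 213 bases before the start site. IRF cores lie at 222 to 215 and at 216 to 209 bases, and TTCCCTAGAA, which has the STAT6 spacing, at 210 to 201 bases.

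Among the 8 members, the response element core was found in the Stat2 window alone, and 2.98% of all 32851 windows of this length hold it. The IRF core was also found before Stat6 (AAGAGAAA, on the other strand, 49 to 42 bases before the start), against 21.3% of all windows. The STAT6 spacing was also found before Ifngr2 (TTCCCGGGAA, 91 to 82 bases), against 5.85%. TTCNNNGAA was in none of the 8 windows, against 7.02% of all. The Jak2 window is 80.8% G or C, above 99.0% of all windows, and that of Ifngr2 is 74.0%. For the other 6 members this share lies between 56.8% and 61.2%, and the median of all windows is 52.4%. A match describes letters only, and its absence says nothing of sites outside the window.

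The receptor chains came first in the pathway and differed little between doses. Ifngr1 (chromosome 10, 19591949 to 19610229 on GRCm38) was at 53.9 FPKM without IFNγ, and at 41.6, 44.2 and 44.5 FPKM at 0.2, 2 and 20 U/ml. The untreated group was the highest, and the 3 treated groups lay close together below it. The log2 ratios against untreated were -0.37, -0.28 and -0.27 with rising dose, and 6.93% of all entries had a lower ratio at 0.2 U/ml, against 24.8% at 20 U/ml. These 3 ratios share 1 untreated value and are not separate observations.

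Ifngr2 (chromosome 16, 91547072 to 91565623) was at 37.0, 36.9, 37.2 and 41.7 FPKM in the same order of groups. Only the 20 U/ml value stood off the rest, by a log2 ratio of 0.17 to untreated, which was 0.03 under upper-quartile scaling and 0.02 under quantile normalization. The ratio of the highest to the lowest group was 1.13, and 4.65% of entries had a smaller one. In untreated cells Ifngr1 was 1.45 times the level of Ifngr2, and at 20 U/ml 1.07 times.

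The JAK kinases divided into a steady and a changing pair of levels. Jak1 (chromosome 4, 101152367 to 101265282), the kinase of IFNGR1, was at 26.9 FPKM untreated and at 23.8, 29.3 and 29.7 with rising dose. Its ratio at 20 U/ml was 0.14, and it was 0.00 or -0.01 after upper-quartile scaling or quantile normalization, so no direction is given for it. Jak1 held the highest level of the 3 kinases in every group.

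Jak2 (chromosome 19, 29251828 to 29313080), the kinase of IFNGR2, was at 4.77 FPKM untreated and at 4.17, 7.17 and 10.6 FPKM with rising dose. It was the lowest of the 8 genes in every group. The 0.2 U/ml group lay just under the untreated one, and the other groups were above both. Its log2 ratios were -0.16, 0.50 and 1.01. The last passed the size rule narrowly, and it was 0.88 under upper-quartile scaling, 0.94 under quantile normalization and 0.99 with the median of all ratios set to 0, so the call does not hold under those scalings.

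Tyk2 (chromosome 9, 21104068 to 21131243), the kinase of the type I interferon receptor, followed the same order of groups at 10.3, 8.80, 14.0 and 18.4 FPKM. Its log2 ratios were -0.21, 0.41 and 0.78, and it was not called against untreated. From 0.2 to 20 U/ml its log2 ratio was 0.99, just under the rule, and 1.06 with a pseudocount of 0.1. In the GENCODE M21 annotation 8.07% of the exonic bases of Tyk2 overlap 1700084C06Rik, an antisense gene, whose entry was at 1.74, 1.90, 2.71 and 3.14 FPKM. No source used here says whether the authors' counting used strand, so reads of the overlap cannot be told apart. The exons of Stat3 and Stat6 share under 1% of their bases with genes on the other strand, Stat5a (72 bases) and Nab2 (40 bases).

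As shares of the summed FPKM of the 3 kinases, Jak1 made up 64.1% in untreated cells and 50.6% at 20 U/ml. Over the same groups Jak2 went from 11.4% to 18.0% and Tyk2 from 24.5% to 31.4%. At 0.2 U/ml the shares were within 0.6 percentage points of the untreated ones. The level of Jak1 was 5.65 times that of Jak2 in untreated cells and 5.70, 4.09 and 2.81 times with rising dose.

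**Figure D2:**
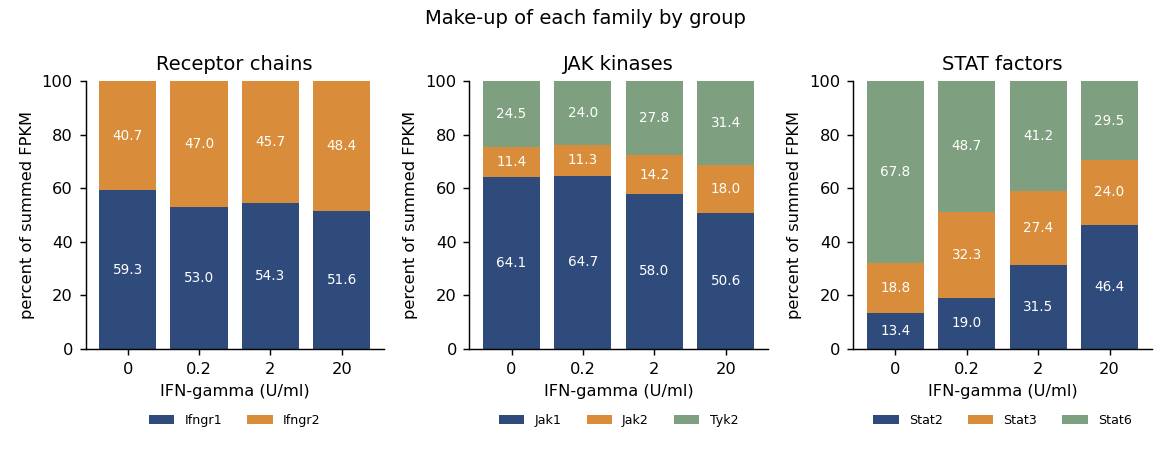
Share of each gene in the summed FPKM of its family (vertical axis, percent) in the 4 groups (horizontal axis, U/ml IFNγ), for the receptor chains, the JAK kinases and the STAT factors named here, with 1 value per group. Stat2 goes from 13.4% to 46.4% of its panel and Jak2 from 11.4% to 18.0%, while the receptor chains move from 59.3% and 40.7% to 51.6% and 48.4%.

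The STAT genes held both the largest ratio of the 8 genes and one of the flattest profiles. Stat2 (chromosome 10, 128270559 to 128292849), the partner of IRF9, was at 11.5 FPKM untreated and at 19.4, 43.5 and 90.8 FPKM with rising dose. Each group was above the one before. The log2 ratios against untreated were 0.70, 1.83 and 2.87, and 98.8% of all entries had a lower ratio at 20 U/ml.

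The step from 0.2 to 2 U/ml gave Stat2 a log2 ratio of 1.13 and that from 2 to 20 U/ml one of 1.05. Stat2 was the member called at either step, where 1.51% and 2.9% of entries were called higher. The call from 2 to 20 U/ml did not hold under upper-quartile scaling, at 0.97, or quantile normalization, at 0.94. From 0.2 to 20 U/ml Stat2 (2.17) and Jak2 (1.16) were called higher, against 6.06% of entries.

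Stat3 (chromosome 11, 100885098 to 100939540), the factor of interleukin-6 and interleukin-10 signalling, was at 16.1 FPKM untreated and at 32.9, 37.8 and 47.0 with rising dose. The untreated group was the lowest, and the lowest dose lay nearer to the highest dose than to untreated. The log2 ratio at 0.2 U/ml was 0.99, just under the rule, at a level 2.04 times the untreated one, and it was 1.03 with a pseudocount of 0.1. At 2 and 20 U/ml it was 1.18 and 1.49.

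Stat3 and Stat2 therefore differed in where along the doses the ratio was reached. At 0.2 U/ml Stat3 was at 66.3% of its log2 ratio of 20 U/ml, and Stat2 at 24.5%. At 2 U/ml they were at 79.3% and 63.6%. Of the 754 entries called higher at 20 U/ml, 59 (7.82%) had a share at 0.2 U/ml at least as high as that of Stat3, and 234 (31.0%) one at least as high as that of Stat2. The median over the 754 was 14.6% at 0.2 U/ml and 46.1% at 2 U/ml. Among 15 listed targets of IFNγ 0 reached the share of Stat3, and the highest was at 61.2%. These shares rest on 1 value at 0.2 U/ml for each gene, and that group stood apart over the whole table. Its FPKM summed over the entries used was 1013223, against 763396 untreated, 781028 at 2 U/ml and 805083 at 20 U/ml. Of the entries called there against untreated 94.1% were higher, and of those called from 0.2 to 2 U/ml 19.4% were. The part of this in the share of Stat3 was not tested.

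**Figure D3:**
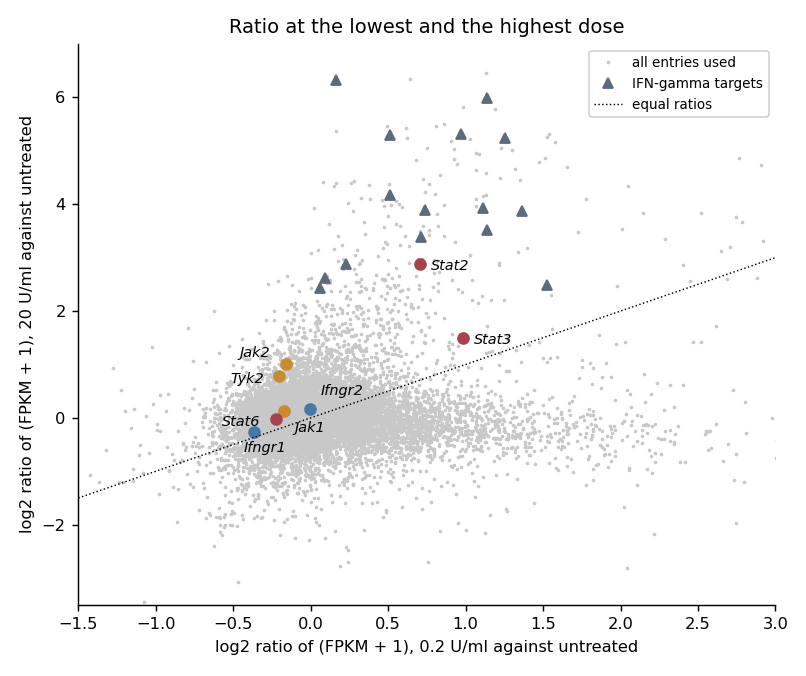
Log2 ratio of (FPKM + 1) against untreated at 0.2 U/ml (horizontal axis) and at 20 U/ml (vertical axis) for all entries used (grey), the listed IFNγ targets (triangles) and the 8 genes (named; blue receptor chains, orange JAKs, red STATs), with a dotted line where both ratios are equal and 48 entries outside the axes. Stat3 (0.99 and 1.49) lies nearer the dotted line than Stat2 (0.70 and 2.87), and the other 6 genes lie left of 0.

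Stat6 (chromosome 10, 127642986 to 127660957), the factor of interleukin-4 and interleukin-13 signalling, was at 58.3, 49.7, 56.9 and 57.8 FPKM. The 0.2 U/ml group was the lowest and the other 3 were within 1.5 FPKM of each other. Its log2 ratio at 20 U/ml was -0.01. In untreated cells Stat6 was the highest of the 8 genes, at 5.06 times the level of Stat2. At 20 U/ml Stat2 was the highest, and Stat6 was at 0.636 times its level.

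Ranked by FPKM, the untreated order was Stat6, Ifngr1, Ifngr2, Jak1, Stat3, Stat2, Tyk2 and Jak2. At 20 U/ml it was Stat2, Stat6, Stat3, Ifngr1, Ifngr2, Jak1, Tyk2 and Jak2. Whether neighbours in either order differ cannot be tested with 1 value per group. Against all entries used, the level of Stat2 moved from percentile 48.3 to 87.3, that of Stat3 from 56.6 to 77.7 and that of Jak2 from 27.5 to 44.6, while that of Ifngr1 moved from 81.7 to 76.7.

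**Figure D4:**
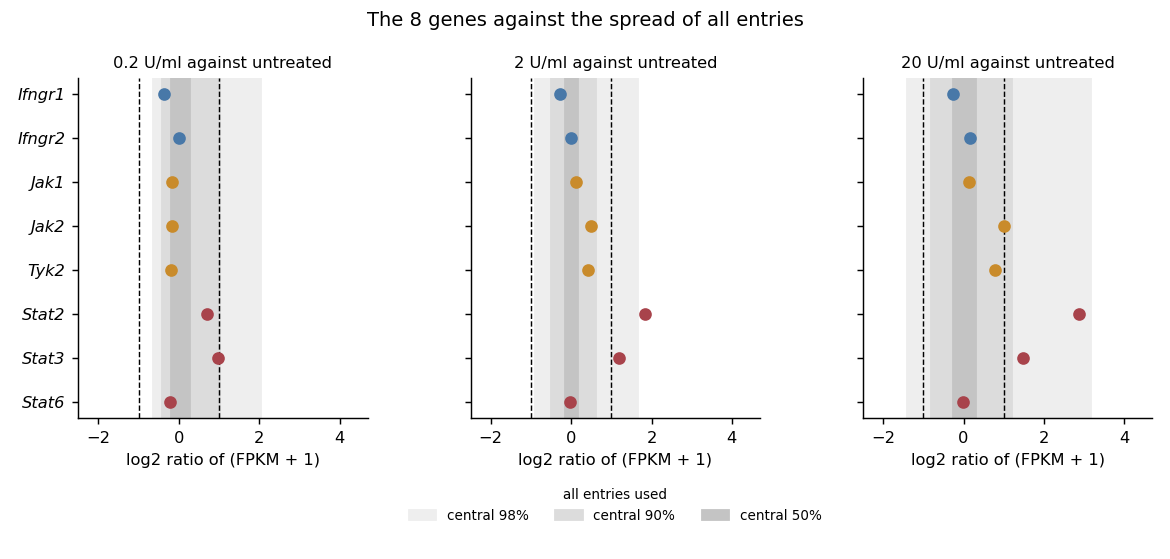
Log2 ratio of (FPKM + 1) of each gene (horizontal axis; blue receptor chains, orange JAKs, red STATs) at the 3 doses against untreated, over grey bands that hold the central 50%, 90% and 98% of all 11580 entries used, with dashed lines at the size rule. Stat2 and Stat3 lie right of the line at 2 and 20 U/ml, Jak2 (1.01) lies on it at 20 U/ml, and the receptor chains, Jak1 and Stat6 stay between -0.37 and 0.17.

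Taken step by step, 6 of the 8 genes, all but Stat2 and Stat3, were lower at 0.2 U/ml than untreated, against 49.7% of all entries. Among these 6, Ifngr2 was lower by a log2 ratio of only -0.01. From there every one of the 8 was higher at 2 U/ml and higher again at 20 U/ml, against 30.3% of entries. That count depends on the scaling, since the sign of Ifngr1, Jak1 and Stat6 from 2 to 20 U/ml, and of Ifngr2 from 0.2 to 2 U/ml, turned under at least 1 of the 3 scalings tried. Stat2 and Stat3 were the members with a higher level at each of the 3 steps, against 9.28% of entries.

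The entries whose 3 ratios lay nearest to those of Stat2, among 7834 single-gene entries of at least 5 FPKM on average, were Oas3 (distance 0.18 in log2 units over the 3 ratios), an oligoadenylate synthetase, the noncoding RNA Gm15821 (0.22) and H2-T24 (0.29), a class Ib histocompatibility gene. Oas3 was at 16.5, 27.6, 54.4 and 133 FPKM. Nearest to Jak2 were Parp8 (0.04), a member of the PARP family, Trim14 (0.07), and the immediate early gene Fos (0.07). Parp8 was at 5.07, 4.32, 7.69 and 11.0 FPKM. Nearest to Stat3 were the antisense RNA Gm26716 (0.21), the complement gene C1qa (0.28) and the long noncoding RNA AU020206 (0.35). C1qa was at 50.1, 112, 112 and 167 FPKM, so its 0.2 U/ml level was already as high as at 2 U/ml. With 4 values each, such likeness is a description only.

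Other genes of the pathway were taken from lists by function. Jak3, the kinase of the common gamma chain, shares an entry with Insl3, and that entry was at 21.6, 23.3, 32.4 and 43.2 FPKM in order of dose. Stat5a was at 7.53 FPKM untreated and 6.87 at 20 U/ml, and Stat5b at 9.93 and 12.8. Neither was called at any dose. Irf9, the partner of STAT2, shares an entry with Rnf31 at 30.4, 42.0, 53.3 and 61.1 FPKM, a log2 ratio of 0.98 at 20 U/ml, just under the rule.

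Of 12 other receptor chains that work through these kinases, 6 were called higher and 0 lower at 20 U/ml. Over all entries used 6.51% were called higher and 2.94% lower there. The median log2 ratio of the 12 was 0.88. Led by Il12rb1 (4.02), at 22.7 against 0.458 FPKM, the 6 included Il15ra at 19.4 against 2.41 and Il21r at 59.1 against 14.1. Also among them was Il4ra, the receptor chain that activates STAT6, at 66.7 against 21.5 FPKM. The last 2 of the 6, named after their values were seen, were Il10ra (1.20) and Il13ra1 (1.12). Ifnar1, a chain of the type I interferon receptor that carries TYK2, was at 19.2 against 24.8 FPKM, and Il6st, which activates STAT3, at 11.3 against 13.9.

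Among 17 inhibitors of this signalling 5 were called higher and 0 lower at 20 U/ml, against 6.51% and 2.94% of entries used. Their median was 0.28. Socs1 (5.51), which blocks JAK kinases, Usp18 (3.59), which acts on the type I interferon receptor, and Socs3 (2.37) led, followed by the phosphatase Ptpn2 at 48.3 against 19.7 FPKM. The fifth, named after its value was seen, was the phosphatase Ptpn6 (1.23).

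At 20 U/ml the listed targets of IFNγ and of the STAT2 and IRF9 complex had higher median ratios than the 8 members (0.47). The lists were chosen with earlier results of these data known, so their counts are a description and not a test. All 15 listed IFNγ targets in use were called higher at 20 U/ml, against 6.51% of entries used, with a median log2 ratio of 3.89. The lowest on this scale, Nos2 (2.43), was above 7 of the 8 members. Nos2 was at 0.09, 0.14, 0.55 and 4.88 FPKM in order of dose. It passed the filter through its 20 U/ml value alone, and the pseudocount of 1 lowers its ratio. Next lowest was Psmb9 (2.49), at 808 against 143 FPKM. Highest were Cxcl9 (6.32), Iigp1 (5.99), Gbp5 (5.32) and Cxcl10 (5.30). All 14 listed targets of the STAT2 and IRF9 complex were called higher as well, with a median of 4.44, led by Oasl1 (5.42), Ifit2 (5.03), Ifit3 (5.01) and Isg15 (4.96). The lowest of the 14 were Ddx58 (1.57), Oas2 (1.68), Oas1a (2.04) and Ifih1 (2.46), each below Stat2 itself (2.87). Of the listed targets, 6 of the 15 and 3 of the 14 were called higher at 0.2 U/ml, against 5.23% of entries used.

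Targets of STAT3 and STAT6 moved less. Of 12 STAT3 targets 5 were called higher at 20 U/ml and 0 lower, against 6.51% and 2.94% of entries used. At 0.2 U/ml 0 of the 12 were called higher, against 5.23% of entries used. The median of the 12 at 20 U/ml was 0.59. The 5 were led by Ccnd1 (1.41), Hif1a (1.31), Nfil3 (1.12) and Bcl3 (1.11). The fifth, named after its value was seen, was Pim1 (1.11). Of 16 STAT6 targets 7 passed the filter, with a median of -0.38. Of the 7, 1 was called higher and 2 lower at 20 U/ml, against 6.51% and 2.94% of entries used. The targets called were the transglutaminase Tgm2 (2.71), the mannose receptor Mrc1 (-1.84) and Egr2 (-1.15). They were followed by the chemokine Ccl24 (-0.85), which did not pass the size rule. Arg1, Chil3 and Retnla, which mark macrophages activated by interleukin-4, were under 0.4 FPKM in every group, as were Mgl2, Ccl17, Alox15 and Cdh1. Also under the filter, Pdcd1lg2 was at 0.04 FPKM untreated and 1.82 at 20 U/ml, and Ccl22 at 0.16 and 1.17. The rest of the list passed the filter and was not called: Clec10a (0.68, at 19.2 against 11.6 FPKM), Klf4 (-0.38) and Pparg (-0.13). Genes in these last sentences were named after their values were seen.

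**Figure D5:**
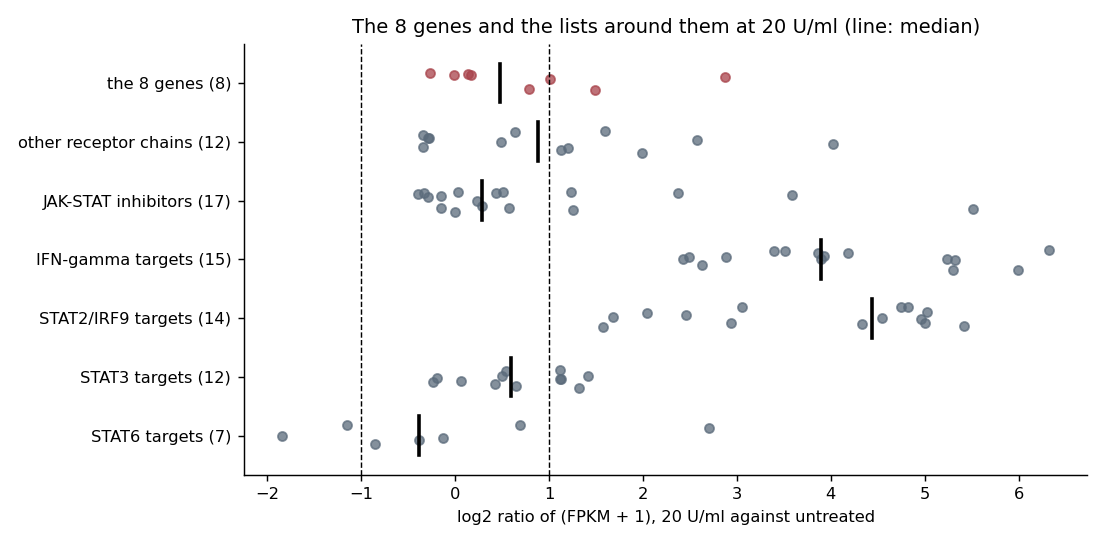
Log2 ratio of (FPKM + 1) at 20 U/ml against untreated (horizontal axis) for the 8 genes and for single-gene entries of the lists around them (rows, number of genes in brackets), with the median of each row as a black line and the size rule as dashed lines. The medians of the 8 genes (0.47) and of the inhibitors (0.28) lie far left of those of IFNγ targets (3.89) and of STAT2 and IRF9 targets (4.44).

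The authors' deposited table of a comparison between conditions called untreated and treated names no dose, and its values went against the dose groups for part of the members. In the authors' deposited table Stat2 was lower in treated cells, with a log2 fold change of -1.41, and Tyk2 too, at -0.74. Jak2 (2.36), Stat3 (2.00), Jak1 (1.45), Ifngr2 (1.07), Stat6 (0.70) and Ifngr1 (0.29) were higher in the authors' deposited table. All 8 were marked significant there, with q-values of 9.95e-05 for 6 genes, 4.72e-04 for Stat6 and 0.00344 for Ifngr1, as were 68.9% of the 12854 entries that the authors' deposited table gives as tested. For Stat2 (2.87) and Tyk2 (0.78) the sign in the authors' deposited table is opposite to that of the ratio at 20 U/ml, while for Jak2 (1.01) and Stat3 (1.49) it is the same. The ratios of the other 4 at 20 U/ml lay between -0.27 and 0.17. Of these, Ifngr1 (-0.27) and Stat6 (-0.01) had the opposite sign in the authors' deposited table, and Ifngr2 (0.17) and Jak1 (0.14) the same. By sign alone 4 of the 8 members were therefore opposite and 4 were higher in both. The sign of Jak1 at 20 U/ml turned under upper-quartile scaling and quantile normalization. No source used here says which dose the authors' deposited table compares, and it was not used to support any value above.

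Median FPKM over the entries used ranged from 12.3 to 13.3 over the 4 groups, and the depth of the libraries is unknown. At 20 U/ml 68.9% of the entries called were higher, and 57.1% under upper-quartile scaling, which put the median log2 ratio of all entries at -0.11 in place of 0.01. The same scaling at 0.2 U/ml put it at -0.10 in place of 0.00. All 7 macrophage markers in single-gene entries, among them Adgre1 and Csf1r, were well above 1 FPKM in every group. Single-gene markers under 1 FPKM in every group were 7 of 7 for T and NK cells, 6 of 6 for erythroid cells, 5 of 6 for mast cells and basophils, 4 of 6 for B cells, 5 of 7 for stroma and endothelium, 4 of 5 for dendritic cells and 5 of 8 for neutrophils. The summed level of the 8 neutrophil markers moved with dose, from 17.3 FPKM untreated to 21.7, 29.3 and 35.5, through 1 gene: S100a8 was at 13.3, 18.0, 25.6 and 30.4 FPKM, and the other 7 markers summed to 4.06, 3.68, 3.75 and 5.09. The sum of B cell markers was 3.00 FPKM at 0.2 U/ml against 1.47 untreated. Sums of single-gene stromal and endothelial markers (5.22 against 2.24) and dendritic cell markers (2.63 against 0.685) were also highest at that dose. This came mostly through Pecam1 (3.41 against 0.691) and Siglech (1.97 against 0.177), with the rest of each list at 1.81 against 1.55 and 0.660 against 0.509. The dendritic sum leaves out the listed marker Clec9a, which shares an entry with Clec1b. That entry was at 1.27 FPKM untreated and at 1.40, 7.16 and 47.1 FPKM with rising dose. The part of these markers in the members' ratios was not tested. In such bulk samples fewer cells of a type and less RNA per cell cannot be told apart.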

How the data were processed

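RNA of 12 mouse macrophage libraries in 4 groups was sequenced. The submitters' processing notes name TopHat2 2.1.1, the mouse build mm10, Cufflinks 2.1.1 and Cuffdiff 2.1.1. Values in the first table deposited are FPKM with 1 value per group, per the file headers; the untreated column names no unit and was read as FPKM from its range. No source used here says how 3 libraries enter 1 value. The other deposited table holds the authors' log2 fold change, p-value and q-value per gene, and its 2 columns of values per condition were not used.

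Of 46729 entries, 22415 were at 0 in every group. A mean of at least 1 FPKM left 11852, and 272 of these were at 0 in a group and left out. Depth is unknown: among 1661 low entries at most 2.11% shared a ratio between groups, so no whole-read step was seen. Ratios used a pseudocount of 1. Planned tests per library could not be made. Lists were counted over single-gene entries past the filter; listed genes in merged entries were left out of the counts. From each list up to 4 genes were named by size at 20 U/ml, with 3 nearest profiles for each member called there. The 8 genes and all lists were chosen with earlier results of these data known. The calculation of ratios was checked on the real untreated values after known fold changes had been put into them. Python 3.11.15, pandas 2.3.3 and numpy 2.4.6 were used. Positions of genes were read from GENCODE M21 (GRCm38, the same assembly as mm10).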

Additional observations from a re-analysis of the deposited data

How the results depend on the processing

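Of 11 alternatives, 5 change only which entries are used and cannot move a gene's own ratio. Under the other 6, 273 of 288 log2 ratios of the 8 genes over 6 comparisons kept their side of the size rule, and 0 that were called turned sign. The 1.5-fold rule among these 6 moves the rule and not the ratios. Most ratios lay well away from the rule, so this count says little about how firm the calls are. Calls were lost in 5 cases, Jak2 at 20 U/ml and Stat2 from 2 to 20 U/ml under scalings, and gained in 10. At 0.2 U/ml the count of members called went from 0 to 1 (Stat3) with a pseudocount of 0.1 or 0.01, and to 2 with a 1.5-fold rule. At 20 U/ml the count went from 3 to 2 under upper-quartile scaling, quantile normalization or a median ratio set to 0. With the 1.5-fold rule it was 4. From 0.2 to 20 U/ml the count went from 2 to 3 with a pseudocount of 0.1 or 0.01, or with the 1.5-fold rule. From 0.2 to 2 U/ml it went from 1 to 3 with the 1.5-fold rule, and from 2 to 20 U/ml from 1 to 0 under upper-quartile scaling and quantile normalization. Entries called over the whole table, as a percentage, were 5.12 with a pseudocount of 0.01 and 2.09 with no filter at 2 U/ml (3.26 otherwise), 6.17 with no filter at 20 U/ml (9.45), and 6.25 and 2.63 from 2 to 20 U/ml (4.01). With the 1.5-fold rule they were 13.0, 8.77 and 22.2 at rising dose, and 19.0, 12.6 and 32.3 for the steps from 0.2 to 2, 2 to 20 and 0.2 to 20 U/ml. The causes were not tested. No paired analysis was possible because the table holds 1 value per group, and for the same reason no replicate could be left out. With the depth unknown, no counting error can be given for any of the 8 genes.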
